A study of Mus musculus with 3 samples.

Results

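The 8 genes *Cldn3*, *Cldn4*, *Cldn5*, *Cldn7*, *Cldn18*, *Ocln*, *Tjp1*, and *F11r*, out of 28692 in the count tables, were chosen by symbol as the claudins and partner genes of the tight junction. Their raw counts were described across the epithelial, endothelial, and other cell types of the postnatal mouse lung. scRNA-Seq had been performed on dissociated whole lungs of 3 wild-type C57BL/6 pups kept in room air from day of life 1 to 14 and taken at P14 (numbered mice 2, 3, and 4). The mice form 1 condition with no treated or mutant arm, so every comparison below is between cell types of the same animals, with the mouse as the replicate (n = 3). Whole lung was loaded without a sort at 16000 cells per library, and a level in a cell type is the RNA captured from the cells that survived dissociation.

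Tight junctions are contacts between the cells of epithelial and endothelial sheets. Their strands of claudins close the gap between neighboring cells and set which ions and solutes can pass. Occludin lies in the same strands, JAM-A (encoded by *F11r*) is an adhesion molecule of the immunoglobulin family, and ZO-1 (encoded by *Tjp1*) is the scaffold beneath the membrane that ties the strands to actin. In the lung, claudin-18 is known from the alveolar epithelium, claudin-3, claudin-4, and claudin-7 from alveolar and airway epithelium, and claudin-5 from endothelium.

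The transcripts were counted by unique molecular identifiers (UMIs), tags that mark each captured molecule so that its copies are counted once. Levels are the UMIs of the gene over all UMIs of the cells of that type in a mouse, scaled to counts per 1000000 UMIs (CPM), given as mean ± SD over 3 mice unless stated. After removal of cells with fewer than 200 genes or more than 20% of UMIs from mitochondrial genes, 2386, 2601, and 2655 cells per mouse remained, with median depths of 4853 to 7119 UMIs per cell. Clusters were made without the 8 genes, and named from marker lists as 1305 epithelial cells, 954 ECs, 1537 stromal cells, and 3025 immune cells. The epithelial cells were 174 AT1-like, 1085 AT2-like, and 46 club-like cells, and the ECs were 489 *Aplnr*-type capillary, 178 *Car4*-type capillary, 159 arterial-like, 105 venous-like, and 23 lymphatic-like cells. At least 10% of the cells of each type used here held a UMI of every gene of its marker list found in the files, except *Ccr7* in dendritic-like cells. The libraries shared 12 cell barcodes (5, 2, and 5 per pair). B-cell-like cells (1783 cells, median 3960 UMIs) should lack epithelial and endothelial claudins, and their levels of the 8 genes are given as the background of free RNA.

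On GRCm38 with GENCODE M21, *Cldn3* (ENSMUSG00000070473) lies on chromosome 5 from 134986214 to 134987472 on the plus strand, and *Cldn4* (ENSMUSG00000047501) on the same chromosome from 134945119 to 134946934 on the minus strand. They are neighbors, with 39279 bases and 0 annotated genes between them. *Cldn5* (ENSMUSG00000041378) lies on chromosome 16 from 18776847 to 18778262 (plus), *Cldn7* (ENSMUSG00000018569) on chromosome 11 from 69964779 to 69967885 (plus), and *Cldn18* (ENSMUSG00000032473) on chromosome 9 from 99689461 to 99717267 (minus). *Ocln* (ENSMUSG00000021638) lies on chromosome 13 from 100496507 to 100552718 (minus), *F11r* (ENSMUSG00000038235) on chromosome 1 from 171437535 to 171464603 (plus), and *Tjp1* (ENSMUSG00000030516) on chromosome 7 from 65296165 to 65527781 (minus). *Cldn3* overlaps Wbscr25 and *Cldn18* overlaps Gm16004, both on the opposite strand, and *Tjp1* overlaps Gm44794, Gm44792, and, on the opposite strand, Gm44795. Whether the counting used strand is not given in the sources used here, so reads of these genes and their partners may not be told apart.

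The 120 bases before annotated starts of the 5 claudins are shown because these genes split between epithelium and endothelium in the counts below (RefSeq promoters on GRCm38.p6, 5′ to 3′ on the strand of the gene). For *Cldn7* only the first start is shown, and the motifs at its second start are given below. Capitals mark a GC-box (CCGCCC, the other strand of GGGCGG, bound by SP1-type factors) or an E-box (CACCTG, bound by SNAIL- and ZEB-type factors).
*Cldn3*, chr5:134986094-134986213, plus: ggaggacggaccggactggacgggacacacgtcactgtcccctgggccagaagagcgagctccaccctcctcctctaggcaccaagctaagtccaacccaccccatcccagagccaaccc
*Cldn4*, chr5:134946935-134947054, minus: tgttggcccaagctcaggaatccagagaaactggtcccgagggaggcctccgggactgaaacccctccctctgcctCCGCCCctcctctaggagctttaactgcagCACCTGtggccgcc
*Cldn7*, chr11:69964659-69964778, plus: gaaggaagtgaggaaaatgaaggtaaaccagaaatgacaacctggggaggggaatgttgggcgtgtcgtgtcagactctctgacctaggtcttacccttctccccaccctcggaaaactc
*Cldn18*, first start, chr9:99717268-99717387, minus: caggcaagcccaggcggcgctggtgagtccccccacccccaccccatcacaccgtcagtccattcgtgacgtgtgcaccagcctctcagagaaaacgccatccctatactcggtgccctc
*Cldn18*, second start, chr9:99710064-99710183, minus: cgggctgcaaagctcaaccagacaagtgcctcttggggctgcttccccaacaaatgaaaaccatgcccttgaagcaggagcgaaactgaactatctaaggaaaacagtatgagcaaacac
*Cldn5*, chr16:18776727-18776846, plus: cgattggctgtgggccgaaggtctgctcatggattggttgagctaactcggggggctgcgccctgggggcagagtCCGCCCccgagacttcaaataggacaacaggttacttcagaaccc

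In the wider promoter windows of 300 bases, 7 motifs were searched on both strands, each counted on its own where matches overlap. The *Cldn4* window held 1 E-box, 2 AP1 motifs (TGANTCA), and 1 GC-box, the *Cldn3* and *Cldn5* windows 1 GC-box each, and the first *Cldn7* window 1 ETS motif (CCGGAAG). The window of a second *Cldn7* start held 2 E-boxes, 1 GC-box, and 1 ETS motif. Of the partner genes, *F11r* had 1 E-box, 1 AP1 motif, and 1 GC-box, *Tjp1* 2 GC-boxes, and *Ocln* 1 GC-box at each of 2 starts with 2 E-boxes at the second. Neither *Cldn18* window held any of the 7, which also included SOX (ACAATGG), NKX2-1 (CTCAAGTG), and FOX (TGTTTAC) motifs. Of all 32851 mouse promoter windows, 32.7% held the GC-box, 17.2% the E-box, 6.91% the ETS motif, 6.75% the AP1 motif, 3.17% the FOX motif, 3.02% the SOX motif, and 0.813% the NKX2-1 motif. Counts from the 3′ end of transcripts do not separate the starts of *Cldn18*.

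Over 90% of the UMIs of each claudin lay in 1 class, and the UMIs of the other 3 genes were divided between classes. Epithelial cells held 96.3% ± 1.71% of a mouse's *Cldn18* UMIs, 95.8% ± 1.44% of its *Cldn3* UMIs, 94.1% ± 1.65% of its *Cldn7* UMIs, and 97.5% ± 4.33% of its *Cldn4* UMIs. ECs held 93.8% ± 1.52% of the *Cldn5* UMIs. *Ocln* was shared, with 54.9% ± 3.86% of its UMIs in epithelial cells and 39.2% ± 1.84% in ECs, as was *F11r* with 50.5% and 40.3%. *Tjp1* was spread most widely, with 50.9% ± 0.930% in ECs, 22.5% in epithelial cells, and 17.1% in stromal cells. These shares depend on how many cells of each class were captured.

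**Figure D1:**
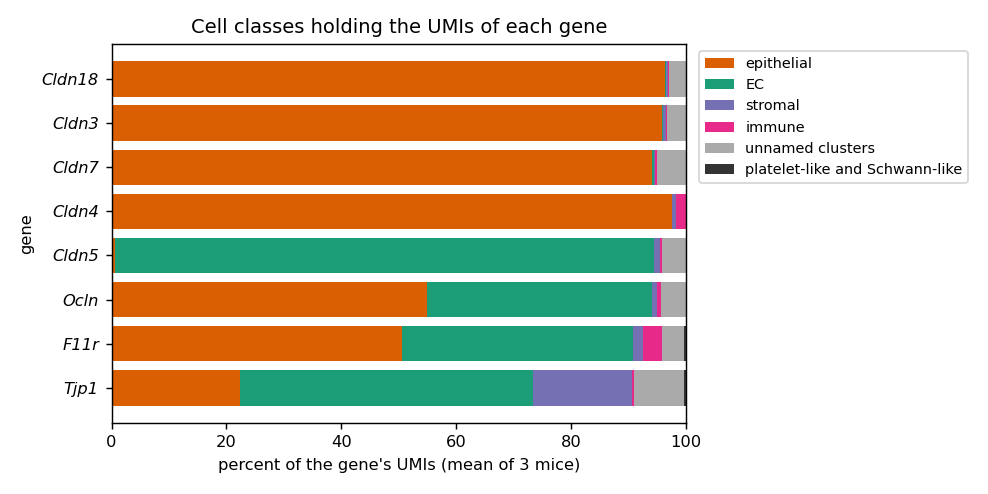
Percent of each gene's UMIs (x axis, mean of 3 mice) that lay in each cell class, with 1 bar per gene and 1 color per class. The bars of *Cldn18*, *Cldn3*, *Cldn7*, and *Cldn4* are over 94% epithelial, that of *Cldn5* is 93.8% EC, and those of *Ocln*, *F11r*, and *Tjp1* are split.

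**Figure D2:**
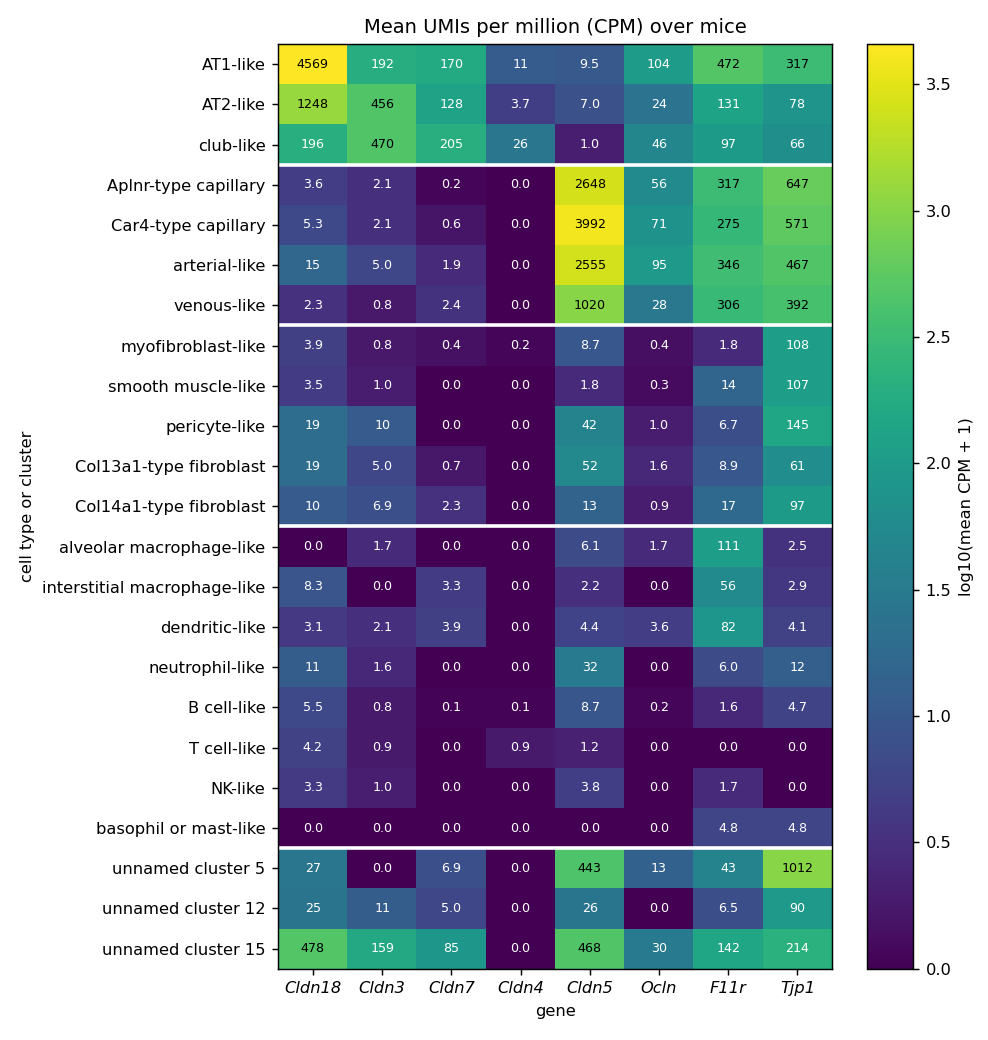
Mean CPM over mice of the 8 genes (columns) in the cell types and unnamed clusters (rows), with the value printed in each cell and colored by log10(mean CPM + 1), and white lines between epithelial, endothelial, stromal, immune, and unnamed rows. Read down a column, *Cldn18* is at 4569 in AT1-like and 1248 in AT2-like cells and under 30 in every EC, stromal, and immune row, and *Cldn5* is at 1020.1 to 3992 in the EC rows.

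The UMIs were summed per mouse and class and compared by the quasi-likelihood test of edgeR (14211 genes, p-values adjusted by Benjamini-Hochberg, threshold 0.05). Between epithelial cells and ECs, 4 of the 8 genes were higher in epithelial cells and 3 lower, where 66.3% of all genes passed (32.6% higher and 33.7% lower). The median log2 fold change of the 8 genes was 3.81 (2.13 with *Cldn4* at its bound), against −0.05 for all genes. It falls in the gap between the 4 higher genes and the rest, and describes no single member. Of the genes that passed, 49.2% were higher in epithelial cells, and 29.3% without TMM scaling, which moved the median of all genes by −0.48 on the log2 scale. Epithelial cells have a median depth of 16105 UMIs against 7610.5 in ECs, and 1085 of the 1305 epithelial cells were AT2-like.

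*Cldn18*, *Cldn3*, and *Cldn7* were higher in epithelial cells than in ECs by 8.53 (SE 0.34, adjusted p = 1.02e-11), 7.94 (SE 0.18), and 7.85 (SE 0.16) on the log2 scale (edgeR). *Cldn5* was lower by a log2 fold change of −8.03 (SE 0.50, adjusted p = 1.72e-09). For the partner genes the differences were smaller, at −1.90 for *Tjp1* (SE 0.11, adjusted p = 8.71e-10) and −0.39 for *F11r* (SE 0.08, adjusted p = 0.000367), both lower in epithelial cells. *Ocln* did not pass, at 36.3 ± 3.34 CPM in epithelial cells and 59.7 ± 3.62 in ECs (log2 fold change −0.23, SE 0.13, adjusted p = 0.122). The *Ocln* difference passed without TMM scaling (−0.72, adjusted p = 0.000121) and with marked doublets removed (−0.29, adjusted p = 0.0459).

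Against stromal cells, 7 of 8 genes were higher in epithelial cells (67.3% of all genes were called, 31.3% higher and 36% lower) and 4 of 8 in ECs (55.8% called, 24.7% higher and 31.2% lower). *Tjp1* was near its level in stromal cells, at 107 ± 10.8 CPM in epithelial cells against 102 ± 2.94 in stromal cells (log2 fold change 0.44, SE 0.11, adjusted p = 0.00331, edgeR), and this call was lost without TMM scaling (0.07, adjusted p = 0.625) and without mouse 4 (0.37, adjusted p = 0.0521). Of the calls between epithelial and stromal cells, 46.5% of all genes were higher in epithelial cells, and 28.4% without TMM scaling. *Cldn5* did not pass between epithelial (6.74 ± 5.40 CPM) and stromal cells (16.6 ± 7.01 CPM; log2 fold change −0.81, SE 0.47, adjusted p = 0.142). It passed without mouse 4 (−1.74, adjusted p = 0.0130), without TMM scaling (−1.19), and with log-normalization (−1.11). ECs were above stromal cells for *Cldn5* by 7.21 (SE 0.48), *Ocln* by 6.41 (SE 0.24), *F11r* by 5.33 (SE 0.11), and *Tjp1* by 2.34 (SE 0.12, adjusted p = 1.56e-10). Of the genes called between ECs and stromal cells, 44.2% were higher in ECs, and 52.1% without TMM scaling.

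Against immune cells, 7 of 8 genes were higher in epithelial cells (75.4% of all genes were called, 37.9% higher and 37.5% lower) and 4 of 8 in ECs (69.4% called, 34% higher and 35.3% lower). The exception in epithelial cells was *Cldn5*, with a log2 fold change of 0.07 (SE 0.53, adjusted p = 0.913). It passed with log-normalization, at 1.10 (adjusted p = 0.0484). ECs were above immune cells for *Cldn5* by 8.10, *Tjp1* by 6.92, *Ocln* by 6.24, and *F11r* by 3.98 (SE 0.10). *Cldn3* in ECs, at 2.23 ± 1.39 CPM against 1.04 ± 0.521 in immune cells, did not pass (adjusted p = 0.0606) and passed under 5 alternatives. Of the genes called between ECs and immune cells, 49.1% were higher in ECs, and 60.4% without TMM scaling.

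*Cldn18*, a claudin found in lung and stomach epithelium, set AT1-like cells apart. Its level in AT1-like cells was 4754 CPM in mouse 2, 4256 in mouse 3, and 4697 in mouse 4, in AT2-like cells 1220, 1274, and 1251, and in club-like cells 242, 99.8, and 247. The 3 types did not overlap, and in the edgeR fit of the epithelial types (9311 genes) AT1-like cells were above AT2-like cells by a log2 fold change of 1.60 (SE 0.28, adjusted p = 0.000243). Cells with at least 1 UMI were 93.2% of AT1-like cells (median 14596.5 UMIs) and 96.7% of AT2-like cells (median 16051 UMIs), against 1.97% of B-cell-like cells. After thinning to 1000 UMIs, leaving out 30 AT1-like and 51 AT2-like cells below that depth, the shares were 95.6% and 68.9%, against 0.450% in B-cell-like cells with 5 left out. AT2 markers summed to 69012 CPM in AT1-like cells (58289 to 76086 per mouse; 7 of 7 markers) against 208249 in AT2-like and 517 in B-cell-like cells, and their part in the levels of AT1-like cells was not tested.

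Club-like cells had less *Cldn18* than AT2-like cells (log2 fold change −2.40, SE 0.29, adjusted p = 6.22e-06, edgeR). With the filter at 500 genes and 10% mitochondrial UMIs, where the club-like cells were a set of 56 cells with a median of 2574 UMIs in place of 46 cells with a median of 40832, the difference was −0.42 and did not pass (adjusted p = 0.144). Among the 46 club-like cells, 9 were marked as doublets, AT2 markers summed to 7941 CPM (2829 to 15640 per mouse), and the 7 ciliated-cell markers to 1836 CPM (1158 to 2967) against 13.1 in AT2-like cells. Their part in the club-like levels was not tested, and no cluster was ciliated-like. When cells were clustered with doublets removed, 27 cells (7, 9, and 11 per mouse, median 37725 UMIs) were named ciliated-like, and the club-like name went to 49 cells with a median of 568 UMIs. With the marked doublets taken out of the 46 club-like cells, the 37 left had *Cldn3* at 520 ± 62.1, *Cldn7* at 225 ± 62.0, and *Cldn4* at 28.5 ± 8.28 CPM.

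*Cldn3*, a claudin of many simple epithelia, followed the reverse order in the alveolus. It was at 461, 456, and 449 CPM in AT2-like cells of mice 2, 3, and 4, at 489, 472, and 450 in club-like cells, and at 182, 221, and 173 in AT1-like cells. AT2-like and club-like cells overlapped, and AT1-like cells lay below both. AT1-like cells were below AT2-like cells by a log2 fold change of −1.53 (SE 0.15, adjusted p = 6.90e-07, edgeR), while club-like cells were at 0.26 (SE 0.14, adjusted p = 0.146), a difference that passed with DESeq2 (0.29, adjusted p = 0.0264) and without mouse 3 (0.32, adjusted p = 0.0496). A *Cldn3* UMI was found in 37.1% of AT1-like, 94.9% of AT2-like, and 0.367% of B-cell-like cells, and in 11.8%, 36.7%, and 0.106% after thinning.

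*Cldn7*, which also lies along the lateral membrane of epithelial cells, was present in all 3 types. Its level was 159, 189, and 162 CPM in AT1-like, 138, 127, and 119 in AT2-like, and 162, 293, and 160 in club-like cells. In the edgeR fit, AT1-like and AT2-like cells did not differ past the threshold (log2 fold change 0.12, SE 0.15, adjusted p = 0.567), although the mice of the 2 types did not overlap in CPM. Club-like cells were above AT2-like cells by 0.84 (SE 0.15, adjusted p = 0.000338). In B-cell-like cells 1 UMI was found in all (0.0885 CPM).

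*Cldn4*, whose protein seals paracellular paths to sodium in other epithelia, was the sparsest member, with 160 UMIs in all kept cells. It was at 22.3, 24.2, and 31.9 CPM in club-like cells and at 4.07, 2.36, and 4.68 in AT2-like cells, with no overlap (log2 fold change 2.98, SE 0.45, adjusted p = 5.60e-05, edgeR). AT1-like cells spread from 1.02 in mouse 2 to 8.89 in mouse 4 and 22.5 in mouse 3 on 25 UMIs, and their difference from AT2-like cells did not pass (0.93, SE 0.57, adjusted p = 0.206). A *Cldn4* UMI was found in 59.3% of club-like, 5.07% of AT2-like, and 6.67% of AT1-like cells, and in 3.07%, 0.368%, and 0.943% after thinning. None of the 954 ECs held a UMI, which allows up to 0.314% of cells with a UMI, sets no limit on cells that express so sparse a gene, and puts ECs at least 22.5-fold below epithelial cells (floor of 3 UMIs over the group, counting error only). In stromal cells there was 1 UMI (ratio of epithelial to stromal CPM 123, 95% counting interval 21.7 to 4878), and in immune cells there were 2 (ratio 48.5, interval 13.2 to 404).

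**Figure D3:**
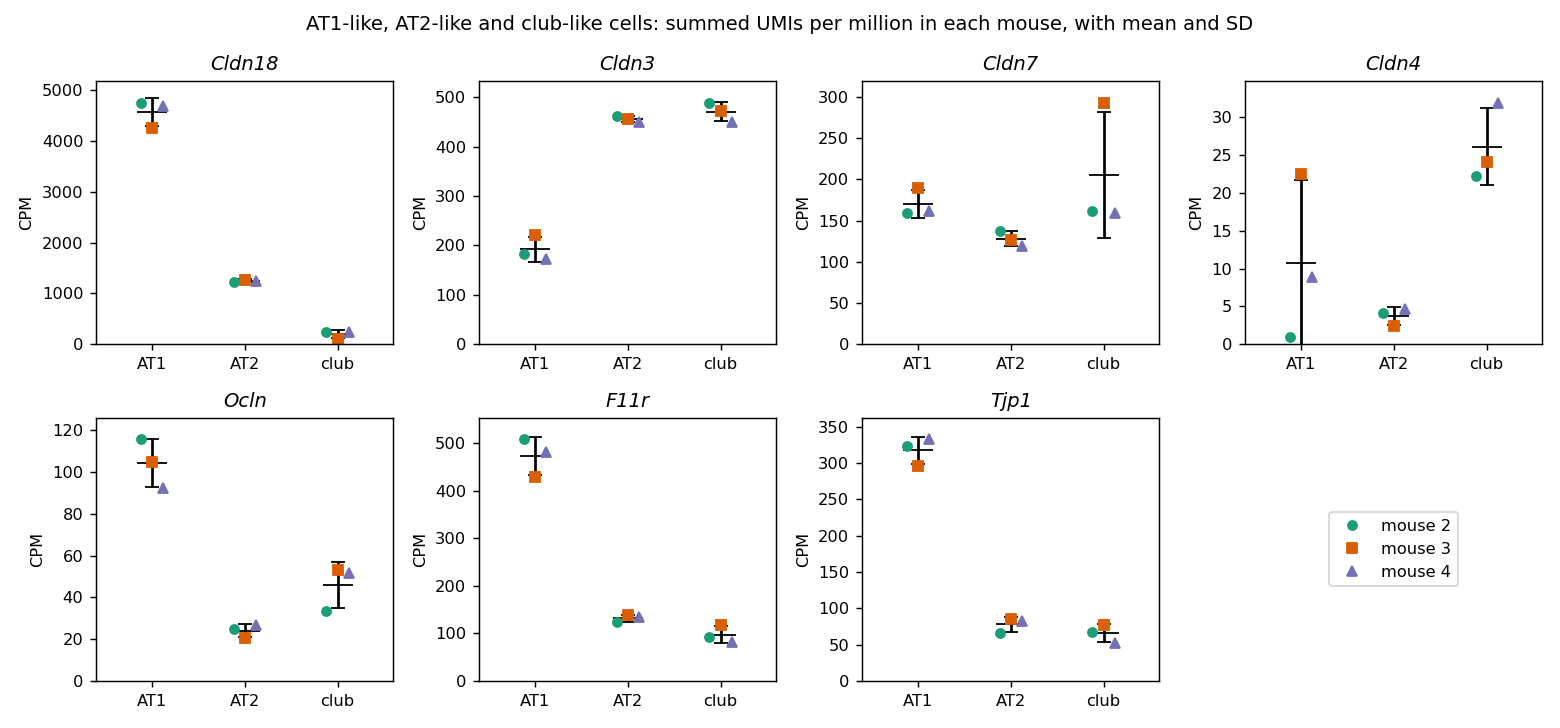
CPM (y axis, from 0) of 7 genes in AT1-like, AT2-like, and club-like cells, with 1 point per mouse and a bar for mean and SD, which for *Cldn4* in AT1-like cells reaches below 0. *Cldn18*, *Ocln*, *F11r*, and *Tjp1* are highest in AT1-like cells in all 3 mice, *Cldn3* is lowest there, and *Cldn4* is at 22.3 to 31.9 in club-like cells.

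The partner genes were, like *Cldn18*, higher in AT1-like than in AT2-like cells. *Ocln* was at 116, 105, and 92.6 CPM in AT1-like cells and at 24.7, 20.8, and 26.7 in AT2-like cells (log2 fold change 1.82, SE 0.15, adjusted p = 1.26e-07, edgeR). *F11r* was at 507, 429, and 480 CPM against 124, 138, and 133 (1.58, SE 0.12, adjusted p = 5.02e-08), and *Tjp1* at 324, 296, and 333 CPM against 66.6, 85.6, and 82.5 (1.76, SE 0.12, adjusted p = 1.67e-08). For each of these genes the lowest AT1-like value was above the highest AT2-like value. In all, 4 of the 7 members tested between AT1-like and AT2-like cells were higher in AT1-like cells and 1 was lower, where 43.2% of all genes passed (20.6% higher and 22.6% lower). *Cldn5* was left out by the filter on low counts. Of all genes that passed, 47.7% were higher in AT1-like cells, and 70.9% without TMM scaling, which moved the median by 0.26. The median over the 7 members was 1.58, and over all genes −0.05.

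Between club-like and AT2-like cells, 3 of 7 members were higher and 1 was lower, where 47% of all genes passed (25.1% higher and 22% lower). *Ocln* was higher in club-like cells (33.5, 53.1, and 51.8 CPM; log2 fold change 1.11, SE 0.19, adjusted p = 0.000156, edgeR). *Tjp1* was at 65.7 ± 12.3 CPM in club-like and 78.2 ± 10.2 in AT2-like cells (−0.05, adjusted p = 0.808), and *F11r* at 97.5 ± 18.0 and 132 ± 7.11 (−0.24, adjusted p = 0.153). The *F11r* difference passed without TMM scaling (−0.44, adjusted p = 0.0244), and in that setting the share of all calls that were higher in club-like cells was 37.9%, in place of 53.3%.

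*Cldn5*, the claudin best known from the blood-brain barrier, was high in every EC type and graded between them. *Car4*-type capillary ECs were at 4199, 3947, and 3830 CPM, *Aplnr*-type capillary ECs at 2817, 2582, and 2545, arterial-like ECs at 2640, 2333, and 2693, and venous-like ECs at 1115, 932, and 1013. *Aplnr*-type and arterial-like ECs overlapped (log2 fold change 0.03, SE 0.09, adjusted p = 0.886, edgeR over 9636 genes), and the other neighbors in this order did not. The arterial-like level averages a sub-cluster above and a sub-cluster below every *Aplnr*-type value, given below. *Car4*-type ECs were above *Aplnr*-type ECs by 0.60 (SE 0.09, adjusted p = 3.74e-05), and venous-like ECs below them by a log2 fold change of −1.27 (SE 0.10, adjusted p = 2.95e-10). Arterial-like were above venous-like ECs by 1.30 (SE 0.10, adjusted p = 3.61e-10). A *Cldn5* UMI was found in 97.1% of *Aplnr*-type, 91.0% of *Car4*-type, and 90.5% of venous-like ECs, and in 89.2%, 95.6%, and 54.1% after thinning, with 18, 46, and 2 shallower cells left out. In B-cell-like cells the shares were 1.48% and 0.421%. Lymphatic-like ECs, with enough cells in mouse 2 alone and 11 of 23 cells marked as doublets, were at 1837 CPM in that mouse.

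Outside the endothelium *Cldn5* was low and uneven between mice. In *Col13a1*-type fibroblasts it was at 22.8, 126, and 5.64 CPM, and the EC marker list in these cells moved the same way, at 182, 421, and 91.6 CPM. In AT2-like cells it was at 7.97, 1.18, and 11.9 CPM beside EC markers of 35.2, 26.5, and 112. The same EC list summed to 286 CPM in B-cell-like cells (263 to 303 per mouse). That sum lay above every AT2-like value, so it is not used as a background for this list. The part of RNA from ECs in these *Cldn5* levels was not tested. Without the cells marked as doublets, *Cldn5* was at 4.51 CPM in *Col13a1*-type fibroblasts and 2.06 in AT2-like cells. All B-cell-like cells, with marked doublets kept, were at 8.67 ± 8.37 CPM (18.3, 3.98, and 3.69 in mice 2, 3, and 4). In mouse 2 the 33 UMIs of B-cell-like cells came from 5 of 397 cells. The 2 sets of values treat doublets differently, so the fibroblast and AT2-like levels are not ranked against this background. Pericyte-like cells were at 60.3, 12.3, and 53.6 CPM, and still at 24.0 (6.16 to 53.6) without marked doublets. In mouse 4 all 14 of their UMIs came from 1 of 45 cells. Neutrophil-like cells, with marked doublets kept, were at 20.2, 9.84, and 64.7 CPM.

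*Ocln* stepped down from arterial-like to venous-like ECs. It was at 94.7, 94.4, and 95.6 CPM in arterial-like, 70.2, 62.8, and 81.2 in *Car4*-type, 56.0, 51.7, and 60.6 in *Aplnr*-type, and 29.5, 26.3, and 28.6 in venous-like ECs. No neighbors in this order overlapped between mice. Arterial-like ECs were above *Aplnr*-type ECs by a log2 fold change of 0.82 (SE 0.15, adjusted p = 0.000191, edgeR) and above venous-like ECs by 1.73 (SE 0.22, adjusted p = 1.90e-06). Venous-like ECs were below *Aplnr*-type ECs (−0.90, SE 0.21, adjusted p = 0.00267). The step from *Aplnr*-type to *Car4*-type ECs did not pass (0.35, SE 0.15, adjusted p = 0.158), and it passed with doublets removed (0.62), at resolutions of 0.4 (0.57) and 1.2 (0.65), and with log-normalization (0.70). AT1-like cells and arterial-like ECs overlapped as the highest of all types, at 104 ± 11.6 and 94.9 ± 0.615 CPM, against 0.154 in B-cell-like cells.

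*Tjp1* was also graded between EC types, in another order. *Aplnr*-type ECs were at 617, 640, and 684 CPM, *Car4*-type at 519, 585, and 609, arterial-like at 486, 457, and 457, and venous-like at 365, 437, and 374. *Aplnr*-type and *Car4*-type ECs lay apart in CPM and did not differ past the threshold in the edgeR fit (log2 fold change −0.17, SE 0.11, adjusted p = 0.380). Arterial-like ECs were below *Aplnr*-type ECs (−0.39, SE 0.11, adjusted p = 0.00942), a call lost without mouse 4 (−0.34, adjusted p = 0.0989). Venous-like ECs were also below *Aplnr*-type ECs (−0.62, SE 0.11, adjusted p = 0.000150). Between arterial-like and venous-like ECs the difference passed in no edgeR or DESeq2 fit (log2 fold change 0.15 to 0.34, adjusted p of 0.166 or more). The arterial-like level averages sub-clusters that lay apart, given below. Outside the sheets that form tight junctions, pericyte-like cells were at 145 ± 14.1 CPM, myofibroblast-like cells at 108 ± 10.5, and smooth muscle-like cells at 107 ± 8.27. In CPM these levels were above the 78.2 ± 10.2 of AT2-like cells in every mouse. CPM carry no TMM scaling, and these types were not tested against AT2-like cells. Leaving out that scaling moved the median of all genes by −0.37 (log2, epithelial against stromal cells). *Tjp1* in B-cell-like cells was at 4.69 ± 2.51 CPM. In pericyte-like cells a *Tjp1* UMI was found in 44.4% of cells, and 13% after thinning with 30 cells left out, against 1.23% and 0.391% of B-cell-like cells.

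*F11r* passed the threshold in no comparison of EC types that was run. It was at 332, 390, and 315 CPM in arterial-like, 317, 326, and 309 in *Aplnr*-type, 308, 311, and 298 in venous-like, and 270, 302, and 254 in *Car4*-type ECs, each overlapping the next. The edgeR log2 fold changes against *Aplnr*-type ECs were 0.20 (SE 0.11, adjusted p = 0.229) for arterial-like, 0.05 (SE 0.11, adjusted p = 0.836) for venous-like, and −0.19 (SE 0.11, adjusted p = 0.319) for *Car4*-type ECs. In CPM, *Car4*-type ECs lay below every *Aplnr*-type and arterial-like value, and venous-like ECs below every arterial-like value. *Car4*-type ECs were not tested against arterial-like ECs. The AT1-like cells, at 429 CPM or more in each mouse, lay above all EC types. AT2-like cells, most of the epithelial class, were at 132 ± 7.11 CPM.

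JAM-A is also known from leukocytes and platelets, and *F11r* had signal in macrophages and dendritic cells. Alveolar macrophage-like cells were at 73.7, 174, and 84.9 CPM, dendritic-like cells at 80.4, 73.8, and 92.7, and interstitial macrophage-like cells at 69.0, 34.6, and 65.1, against 2.22, 1.59, and 0.923 in B-cell-like cells. Every value of these 3 types was above every B-cell-like value. Neutrophil-like cells, the largest myeloid type with 466 cells, were at 0, 3.93, and 14.1 CPM on 7 UMIs and overlapped B-cell-like cells, and basophil- or mast-cell-like cells held 1 UMI. A UMI was found in 45.8% of alveolar macrophage-like and 25.6% of dendritic-like cells against 0.611% of B-cell-like cells, and in 10.5%, 6.53%, and 0.135% after thinning. In alveolar macrophage-like cells the epithelial marker list summed to 170 CPM with *Krt18* and *Elf3* at 0, beside 57 *F11r* UMIs, 1 UMI each of *Cldn3* and *Ocln*, and 0 of *Cldn18*, *Cldn7*, and *Cldn4*. The epithelial list summed to 120 CPM in dendritic-like cells (57.4 to 217 per mouse, *Elf3* at 0) and to 17.4 in interstitial macrophage-like cells. The EC list summed to 104 CPM in interstitial macrophage-like cells (69.0 to 147, *Emcn* at 0), 36.1 in alveolar macrophage-like cells, and 58.9 in dendritic-like cells. In B-cell-like cells the epithelial list was at 14.7 CPM and the EC list at 286. That EC sum was above those of all 3 types and of AT2-like cells (57.9). It is therefore not used as a background for the EC list, and its source was not tested. The part of epithelial or EC RNA in the *F11r* levels was not tested.

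**Figure D4:**
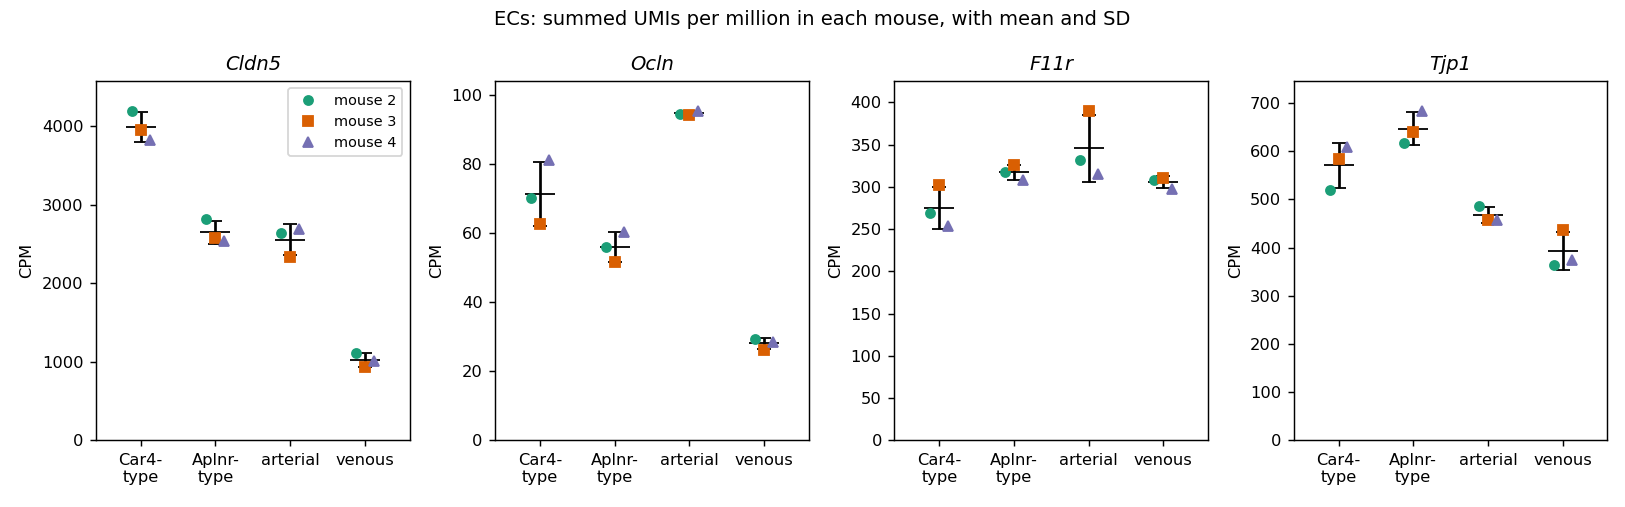
CPM (y axis, from 0) of *Cldn5*, *Ocln*, *F11r*, and *Tjp1* in 4 EC types, with 1 point per mouse and a bar for mean and SD. *Cldn5* is highest in *Car4*-type ECs (3830 to 4199), *Ocln* in arterial-like ECs (94.4 to 95.6), and *Tjp1* in *Aplnr*-type ECs (617 to 684). *F11r* overlaps between neighbors in the order of means, but not between all types.

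In the EC fits, 5 members were tested, since *Cldn3*, *Cldn4*, and *Cldn7* did not pass the filter on low counts there. Of these 5, 1 passed between *Car4*-type and *Aplnr*-type ECs and was higher, where 13.6% of all genes were called (8.17% higher and 5.4% lower). Between arterial-like and *Aplnr*-type ECs 1 was higher and 1 lower, where 22% were called (11.9% higher and 10.1% lower). Between venous-like and *Aplnr*-type ECs 3 were lower, where 20.3% were called (11.4% higher and 8.91% lower), and between arterial-like and venous-like ECs 2 were higher, where 13.8% were called (6.3% higher and 7.52% lower). The 3 comparisons against *Aplnr*-type ECs share the *Aplnr*-type sums, and their values are given side by side without a test of likeness. Of the genes called between venous-like and *Aplnr*-type ECs, 56.2% were higher in venous-like ECs, and 44.6% without TMM scaling.

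*Cldn18* passed the filter in ECs through the arterial-like sum of mouse 2, where 18 UMIs came from 3 of 59 cells. It was at 33.4, 2.10, and 9.37 CPM in arterial-like ECs on 24 UMIs and at 2.31, 0, and 8.50 in *Aplnr*-type ECs on 20 UMIs, and the groups overlapped. The difference did not pass (log2 fold change 1.92, SE 0.76, adjusted p = 0.0762, edgeR). It passed with the mouse as a block for the pairing (2.02, adjusted p = 0.0323), without a filter on low counts (1.88, adjusted p = 0.00580), and without mouse 4 (3.59, adjusted p = 0.0210). These fits rest on the same few UMIs and are not further support. Epithelial markers summed to 53.7 CPM in arterial-like ECs (68.7, 23.1, and 69.3 per mouse, with *Elf3* at 0) and to 7.96 in *Aplnr*-type ECs (with *Krt18* at 0), and their part in the result was not tested. Against venous-like ECs with 3 UMIs, the ratio of CPM was 6.61 (95% counting interval 2.01 to 34.3, adjusted p = 0.135). That difference passed without a filter on low counts (adjusted p = 0.0150).

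**Figure D5:**
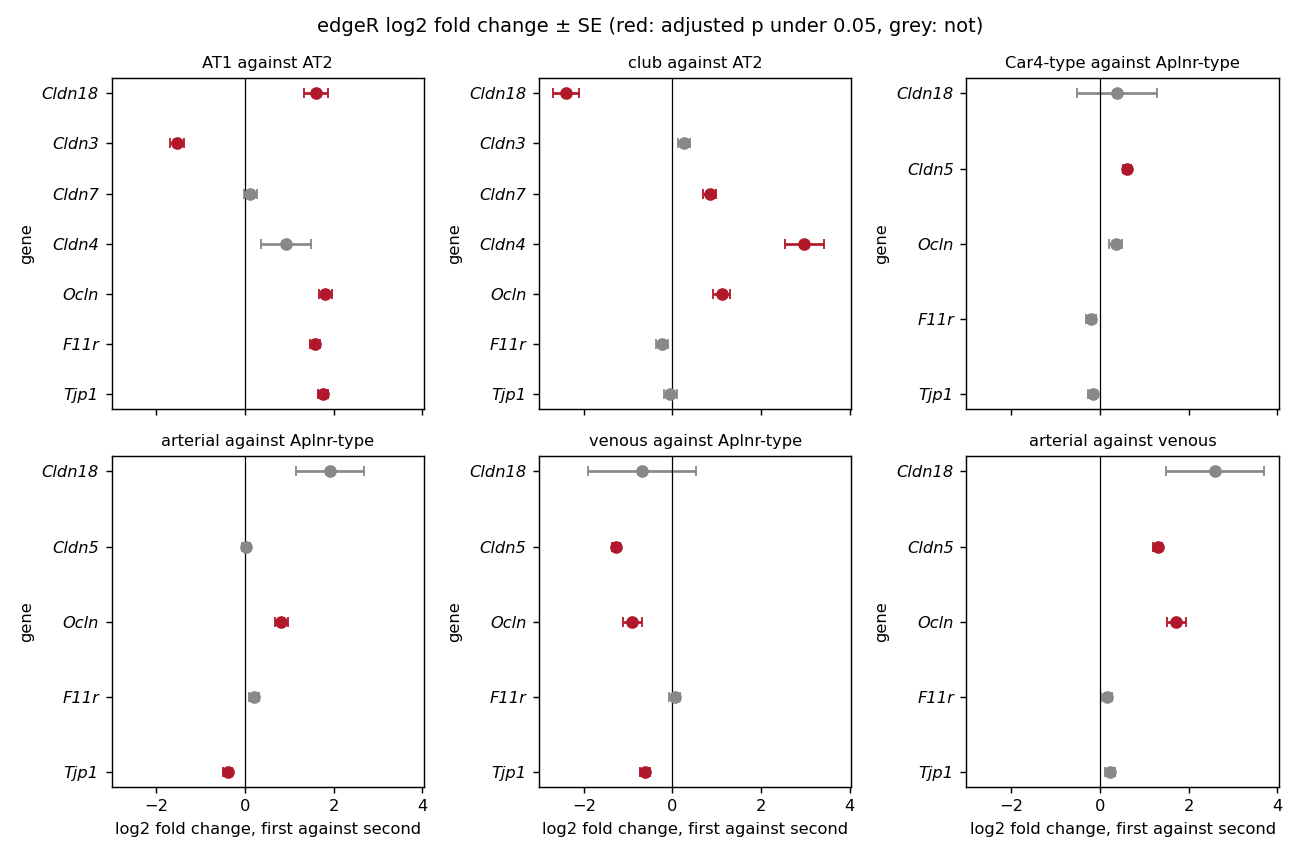
edgeR log2 fold changes (x axis) with SE bars of the members tested in 6 comparisons within the epithelium and the endothelium, red where the adjusted p was under 0.05 and grey otherwise. *Cldn3* lies left of 0 and *Cldn18*, *Ocln*, *F11r*, and *Tjp1* right of it between AT1-like and AT2-like cells, and *Cldn5* lies right of 0 against *Aplnr*-type ECs in *Car4*-type ECs and left of 0 in venous-like ECs.

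Single cells held several members at once, as far as their depth allowed. The median number of the 8 genes with a UMI was 5 in AT1-like and AT2-like cells, 6 in club-like cells, 3 in each EC type, and 0 in B-cell-like cells. At least 4 members were found in 83.7% of AT2-like and 64.4% of AT1-like cells, and in 46.5% of arterial-like, 38.8% of *Car4*-type, 31.1% of *Aplnr*-type, and 25.7% of venous-like ECs, at median depths of 6912 to 8948 UMIs in the ECs.

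Within the types, sub-clusters differed, and are given as values without a test. The 59 arterial-like ECs of 1 sub-cluster had more *Cldn5* (3565, 2994, and 3165 CPM) and less *Tjp1* (328, 272, and 314 CPM) than the other 100, which were at 2115, 1604, and 2171 for *Cldn5* and 576, 661, and 616 for *Tjp1*. No mouse overlapped for either gene, so the arterial-like levels above average over unlike sets. The *Tjp1* values of the 100 cells overlapped those of *Aplnr*-type ECs (617, 640, and 684 CPM), and those of the 59 lay below every venous-like value. For *Cldn5*, the 59 cells lay above and the 100 below every *Aplnr*-type value. The *Car4*-type ECs fell into 97 cells with a median of 9148 UMIs and 81 cells with a median of 916 UMIs, and *Cldn5* was at 4720 ± 101 CPM in the deeper and 2414 ± 320 in the shallower set. The AT1-like cells likewise fell into 101 cells with a median of 22009 UMIs and 73 with a median of 1195 UMIs, where *Cldn3* was at 173 ± 16.7 and 373 ± 81.0 CPM and *F11r* at 496 ± 44.8 and 232 ± 93.5. From the deeper to the shallower set, the EC list went from 11579 to 7222 CPM in *Car4*-type ECs. In AT1-like cells the AT1 list went from 21037 to 12939 CPM and the AT2 list from 68229 to 78023. Why the shallower sets differ was not tested. Among the AT2-like sub-clusters found in all mice, *Cldn18* ranged from 1063 to 1697 CPM and *Cldn3* from 435 to 575.

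Of 51 other genes of the tight junction in the files, 38 were tested between classes. They comprised other claudins, JAM-family adhesion molecules, tricellular junction proteins, scaffolds, and polarity complexes. Between epithelial cells and ECs, 22 were higher in epithelial cells and 12 in ECs (89.5% called, against 66.3% of all genes). *Cgn*, the scaffold cingulin, was at 93.1 ± 5.11 CPM in epithelial cells with 3 UMIs in ECs (ratio of CPM 301, 95% counting interval 103 to 1459), and *Tjp3*, a relative of *Tjp1*, at 33.1 ± 3.38 with 1 UMI in ECs. *Crb3*, a protein of the apical polarity complex, was at 93.1 ± 2.82 CPM against 0.638 in ECs (log2 fold change 7.64, SE 0.23, edgeR), and *Marveld3*, *Ildr1*, and *Cldn10* were also higher in epithelial cells. On the endothelial side, *Jam2* was at 158 ± 9.98 CPM against 0.802 (−6.95, SE 0.20) and *Esam*, an endothelial adhesion molecule, at 664 ± 22.6 against 89.5 (−2.40, SE 0.09), and *Jam3*, *Mpdz*, *Amot*, and *Cldn34c1* were also higher in ECs.

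Against stromal cells, 23 of 38 were higher and 10 lower in epithelial cells, and 11 were higher and 12 lower in ECs (86.8% and 60.5% called, against 67.3% and 55.8% of all genes). Among the claudins called higher in stromal cells, *Cldn1* was at 25.5 ± 1.75 CPM there with 3 UMIs in epithelial cells and 4 in ECs, and *Cldn34c1* at 14.3 ± 1.56 CPM against 2.61 in epithelial cells. *Cldn12* was at 15.6 ± 4.45 CPM against 10.5 in ECs (adjusted p = 0.0269, edgeR), a call lost without mouse 3 (0.101) or mouse 4 (0.127) and without TMM scaling (0.0652). *Jam3* was at 65.4 ± 4.93 CPM there against 0.516 in epithelial cells and 19.8 in ECs. *Clmp*, an adhesion molecule of the CTX family, was at 37.4 ± 6.52 CPM in stromal cells against 3.98 in ECs (log2 fold change −3.37, SE 0.27, edgeR). Against immune cells, 31 were higher and 3 lower in epithelial cells, and 21 were higher and 8 lower in ECs (89.5% and 76.3% called, against 75.4% and 69.4% of all genes). *Cldn1* was higher in immune cells, at 10.6 ± 3.72 CPM, than in either.

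Between AT1-like and AT2-like cells 28 of the 51 were tested, and 16 were higher and 5 lower in AT1-like cells (75.0% called, against 43.2% of all genes, whose calls lean to AT1-like cells without TMM scaling as given above). The higher ones were led by *Cldn23* (13.6 ± 3.73 against 1.12 ± 0.466 CPM), by the polarity genes *Pard6b* (227 ± 38.2 against 27.7 ± 0.0498) and *Mpp5* (227 ± 22.6 against 50.5 ± 4.63), and by the scaffolds *Magi1*, *Magi3*, and *Amotl2*, with log2 fold changes of 1.44 to 3.43. *Pard6g*, *Tjp3*, *Magi2*, *Igsf5*, and *Pard3* were lower, with log2 fold changes of −0.49 to −1.86. *Pard6b* and *Pard6g*, of the same gene family, thus went opposite ways. The *Igsf5* call was lost without mouse 2 (adjusted p = 0.129), mouse 3 (0.0557), or mouse 4 (0.0538) and without TMM scaling (0.220), and the *Pard3* call without mouse 3 (0.0510) and without TMM scaling (0.278). Between club-like and AT2-like cells 6 were higher and 9 lower (53.6% called, near the 47% of all genes). *Cldn10*, a claudin known to form ion channels, was at 227 ± 67.8 CPM in club-like and 5.46 ± 0.398 in AT2-like cells (log2 fold change 5.64, SE 0.27, adjusted p = 3.92e-10, edgeR). *Cldn23*, *Cldn8*, *Tjp3*, *Prkcz*, and *Cgn* were also higher there. *Esam* was at 87.8 ± 3.06 CPM in AT2-like cells and 1.81 ± 1.65 in club-like cells (−5.53, SE 0.35), and *Pard6b*, *Pard6g*, *Pard3*, *Igsf5*, and *Amotl2* were lower in club-like cells as well. With the filter at 500 genes the *Pard6b* difference turned to 0.60 (adjusted p = 0.0873, edgeR), and the calls of *Cgn*, *Pard6g*, and *Amotl2* were lost.

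Among the EC types 21 of the 51 were tested. *Jam2* was higher in arterial-like (329 ± 14.2 CPM) and venous-like ECs (292 ± 19.5) than in *Aplnr*-type (98.1 ± 16.1) and *Car4*-type ECs (47.6 ± 11.9). The log2 fold changes of arterial-like, venous-like, and *Car4*-type ECs against *Aplnr*-type ECs were 1.80, 1.65, and −1.05, each past the edgeR threshold. *Pard6g* ran the other way, at 106 ± 27.5 CPM in *Car4*-type, 57.6 ± 6.36 in *Aplnr*-type, 14.9 ± 5.72 in venous-like, and 5.90 ± 2.34 in arterial-like ECs, each past the threshold against *Aplnr*-type ECs. With log-normalization its difference in venous-like ECs turned to 0.72 (adjusted p = 0.204), and in *Car4*-type ECs the call was lost without mouse 2 (adjusted p = 0.0561) or mouse 3 (0.0516). In arterial-like ECs 5 genes were higher and 6 lower than in *Aplnr*-type ECs, in venous-like ECs 1 and 3, and in *Car4*-type ECs 1 and 3. The shares called were 52.4%, 19.0%, and 19.0%, against 22%, 20.3%, and 13.6% of all genes, so that the last 2 were near the background. *Amot* and *Amotl1* were lower in *Car4*-type ECs, *Magi3* in venous-like ECs, and *Mpdz*, *Amotl2*, *Amotl1*, and *Esam* in arterial-like ECs, where *Mpp5* and *Cgnl1* were higher. *Lsr* and *Cldn15* were also higher in arterial-like ECs, at 13, 39.9, and 18.7 CPM and 5.57, 21.0, and 22.5 CPM, and the *Cldn15* call was lost without mouse 4 (adjusted p = 0.0825). Leaving out mouse 2, 3, or 4 ended the calls of *Amot* (adjusted p = 0.0720, 0.180, and 0.0934) and *Amotl1* (0.0632, 0.231, and 0.276) in *Car4*-type ECs, and those of *Amotl1* (0.140, 0.0874, and 0.229) and *Esam* (0.212, 0.186, and 0.0756) in arterial-like ECs. In arterial-like ECs the call of *Mpdz* was also lost without mouse 2 (0.0884) or 4 (0.0709), of *Mpp5* without mouse 3 (0.112) or 4 (0.191), of *Cgnl1* without mouse 3 (0.181), and of *Amotl2* without mouse 4 (0.110). *Lsr*, found at tricellular contacts, was the 1 gene that passed between arterial-like and venous-like ECs (23.9 ± 14.1 against 3.14 ± 1.41 CPM, adjusted p = 0.00977), and it did not pass without mouse 3 (adjusted p = 0.269).

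The genes most like each member across 21 cell types are given as a description, by Pearson's r of log2(mean CPM + 10) among 8833 genes, where all points come from the same 3 libraries. *Cldn3* was closest to *Esrp1* (r = 0.991), an epithelial splicing factor, *Kcnj15*, and *Prr15l*, and *Cldn7* to *Smim22* (r = 0.991), *Foxa1*, and *Esrp1*. *Cldn18* was closest to *Ager* (r = 0.982), *Aqp5*, and *Pof1b*, of which the first pair were AT1 markers here, and *Cldn5* to *Ecscr* (r = 0.987), *Cyyr1*, and *Sox17*. *Cldn4* was closest to *Arhgdig* (r = 0.981), *Tbx1*, and *Cckar*. Its highest type mean was 26.1 CPM, in club-like cells, under the 50 CPM asked of the compared genes. With 160 UMIs in all kept cells, its r rests on few types, here and in its pairs below. The shared genes had less close companions, with *Ocln* next to *Cyb561* (r = 0.949), *Arhgef26*, and *Stap2*, *Tjp1* to *Epn2* (r = 0.966), *Apbb2*, and *Ptk2*, and *F11r* to *Jup* (r = 0.814), which encodes plakoglobin, *Shroom4*, and *Cracr2b*. Within the 8 genes the closest pair was *Cldn3* and *Cldn7* (r = 0.975), and the pairs of the 4 epithelial claudins had r of 0.703 to 0.975, with 0.862 for the neighbors *Cldn3* and *Cldn4*. *Ocln* was closest to *F11r* (r = 0.80) and *Cldn5* to *Tjp1* (r = 0.728).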

How the data were processed

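For each of the 3 libraries the authors deposited a filtered matrix of raw UMI counts, which no step had normalized, made with Cell Ranger 3.0.2 on mm10 per the labels (10x kit v3). The annotation of the counting is not given in the sources used here. The series gives 5677 cells and states no filter, and the files hold 3034, 3135, and 3475 cells with 22476491 to 25192427 UMIs per library. Of these 9644 cells, 7642 were kept.

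SCTransform (sctransform 0.4.2 in Seurat 5.3.0, R 4.3.3) was run on the merged cells with 3000 variable genes, none of them among the 8 members or 51 other tight junction genes. Clusters were taken at a resolution of 0.8 from 30 principal components. Epithelial cells and ECs were clustered again on 20. Clusters were named from marker lists, with thresholds set after the clusters had been seen. Doublets were scored with scrublet in scanpy 1.11.5 (Python 3.11.15), and 197 cells were marked at 0.8% per 1000 cells and kept.

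Counts were summed per mouse and class or type (at least 10 cells) and tested with edgeR 4.0.16 (quasi-likelihood test, TMM, filterByExpr, Benjamini-Hochberg adjustment, threshold 0.05). The SE given with an edgeR fold change was derived from the test, as the absolute log2 fold change over the square root of its F statistic. The members pass the filter through the groups where they are high. Nothing says more of the mice than their numbers, and p-values measure the spread between these 3. Sums with the same mouse number share an animal. Their deviations from the group means correlated with r of 0.116 to 0.468 between classes, 0.138 to 0.385 between EC types, and 0.00986 to 0.487 between epithelial types, and the mouse was used as a block in an alternative fit. In simulated counts in which 200 genes had a log2 change of 2, edgeR recovered 99% of those tested between epithelial cells and ECs (13690 genes), 96.3% between AT1-like and AT2-like cells (8753 genes), and 97.5% between *Car4*-type and *Aplnr*-type ECs (9122 genes). The changed genes had at least 200 UMIs, all others were equal between groups, the dispersion was fixed at 0.05, and sums of a mouse were independent. The real sums differ in these points, so the recovery does not give the power for smaller changes or sparse members. Thinned shares are the expected shares at 1000 UMIs per cell. Counting intervals are exact 95% intervals and cover counting error only.

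The alternatives were DESeq2 1.42.0, library sizes without TMM, all genes with a UMI, the mouse block, each mouse left out, other filters on cells, doublets removed, other resolutions, log-normalization, the tight junction genes allowed among the variable genes, thinning, and, added after the data had been seen, cells with at least 2000 UMIs. The members and gene lists were chosen with earlier results of these data known. All 8 members are named, with up to 6 other tight junction genes per direction that passed with at least 10 CPM in the higher group, by fold, and the 3 genes most like each member with at least 50 CPM in 1 type. 1 of the other tight junction genes is counted but not reported here by name.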

Additional observations from a re-analysis of the deposited data

Results flagged for a closer look

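Signal of the members in cells outside the comparisons was compared with the highest B-cell-like value of any mouse, and 15 levels (mean CPM) that lay above it in every mouse are given. Cluster 15, which stayed unnamed, held 145 dividing cells led by *Top2a* and *Mki67* with 18 marked doublets, and markers of both ECs (2525 CPM) and epithelial cells (760 CPM). It had *Cldn18* at 478 (429 to 557), *Cldn5* at 468 (282 to 729), *Tjp1* at 214, *Cldn3* at 159, *F11r* at 142, *Cldn7* at 84.9, and *Ocln* at 30.4. Cluster 5, also unnamed, held 457 cells with a median of 843 UMIs and a median of 0.568% mitochondrial UMIs, and EC markers summed to 2482 CPM there. *Tjp1* was at 1012 in it (928 to 1135), above every named type, with *Cldn5* at 443, *F11r* at 42.7, *Cldn18* at 26.5 on 12 UMIs, and *Ocln* at 12.6 on 6 UMIs. *Cldn7* also lay above the B-cell-like value in cluster 5 (5.10 to 8.77 CPM), on 1 UMI per mouse, and is not counted among the 15. In cluster 12 (161 cells, median 773 UMIs), *Tjp1* was at 90.3 on 24 UMIs and *Cldn18* at 24.7 on 6 UMIs. Platelet-like cells had *F11r* at 229 (268 in mouse 2 and 191 in mouse 3, on 19 UMIs in these mice; in mouse 2 all 17 UMIs came from 1 of 10 cells, the 1 cell with at least 1000 UMIs), beside an EC marker sum of 1449 CPM and 0 UMIs of the epithelial markers.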

How the results depend on the processing

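Of 74 values of a member in a comparison, 62 kept their side of the threshold under all alternatives run. The other 12 changed side in 1 or more and are given in the report. No value past the threshold in the main fit reversed, while values that did not pass could change sign. Among these was *Cldn18* between ECs and immune cells, with log2 fold changes of −0.44 to 0.29. The number of members past the threshold rose from 1 to 2 between *Car4*-type and *Aplnr*-type ECs with doublets removed, at resolutions of 0.4 and 1.2, and with log-normalization. For the other tight junction genes, calls between club-like and AT2-like cells fell from 15 to 7 when cells needed 500 genes and no more than 10% mitochondrial UMIs. Between *Car4*-type and *Aplnr*-type ECs they fell from 4 to 2 with DESeq2 and ranged from 1 to 2 with a mouse left out. Between arterial-like and *Aplnr*-type ECs they fell from 11 to 7 with DESeq2, with doublets removed, at a resolution of 0.4, and with log-normalization, and ranged from 5 to 8 with a mouse left out. Between venous-like and *Aplnr*-type ECs they rose from 4 to 7 without a filter on low counts. Between arterial-like and venous-like ECs the main count of 1 became 0 with 500 genes, 2 at a resolution of 1.2 and with the genes allowed among the variable genes, 5 with log-normalization, and 0 to 2 with a mouse left out. The type with the highest level stayed the same for 5 of 8 members with doublets removed, where too few mice had club-like cells to rank, and for 7 with 500 genes, where the club-like cells were other cells. Of 95 named values of other tight junction genes, 17 lost their call under 1 or more alternatives, 14 of them with a mouse left out, and 2 reversed, *Pard6b* in club-like cells with 500 genes (0.60) and *Pard6g* in venous-like ECs with log-normalization (0.72), neither past the threshold. The cause was not tested. Over all genes, calls between *Car4*-type and *Aplnr*-type ECs were 1307, and 782 with DESeq2, 757 without mouse 3, and 859 without mouse 4. They were 4027 between AT1-like and AT2-like cells and 2479 without mouse 4, 4380 between club-like and AT2-like cells and 2571 with 500 genes, and 1332 between arterial-like and venous-like ECs and 868 without mouse 3. The replicate block changed no member's call but that of *Cldn18* in arterial-like ECs, where 3 in place of 2 members passed. The comparison of ciliated-like cells was not run under any setting, and that of club-like cells was not run with doublets removed, since too few mice had 10 such cells. Depth limits *Cldn4* most, with 160 UMIs.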
